A study of Homo sapiens with 4 samples.

Results

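Human mitochondrial ribosomal protein genes were followed through 4 RNA-seq libraries of MDA-MB-468 mammospheres. The members were taken by name, as every symbol made of MRPL or MRPS and a number, with or without a final A, B or C. Of 26475 symbols in the deposited tables, 77 met the rule, and all 77 passed the filter on low values, which kept the 15204 genes with 10 or more counts in 1 or more libraries. By their place in the particle, 50 encode proteins of the large subunit and 26 proteins of the small subunit. The remaining member, MRPS36, carries the name of the family but its protein is now counted as part of the 2-oxoglutarate dehydrogenase complex.

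The mitochondrial ribosome translates the few messenger RNAs of the mitochondrial genome, all of which encode subunits of the respiratory chain and ATP synthase. Its RNAs come from the mitochondrial genome, whereas its proteins are encoded in the nucleus, made in the cytosol and imported. Doxycycline, a tetracycline, binds bacterial ribosomes and also inhibits translation in mitochondria, which makes these genes of interest wherever the drug is used to switch on a transgene.

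MDA-MB-468 is an established line of basal-like triple-negative breast carcinoma, and mammospheres are the floating spheres that its cells form without attachment, here over 7 days. CTL cells, labelled wild type, carried Cas9 and the control vector. gRNA2 cells, also labelled wild type while untreated, carried Cas9 and a doxycycline-inducible guide against TCOF1, the gene of the nucleolar protein treacle. CTL+dox and gRNA2+dox received doxycycline, and only gRNA2+dox is labelled as a TCOF1 knockout. The labels give no dose or time for the drug. The authors' legends for their mammosphere assays describe doxycycline given before the cells were seeded, but their RNA-seq methods do not state its timing. Whether the drug was present during the 7 days of culture is therefore not known here. All 4 groups share Cas9 and lentiviral infection, each cell population is a sorted pool rather than a clone, and each group is 1 library from pooled culture plates. CTL+dox against CTL therefore carries doxycycline without the TCOF1 guide, and gRNA2+dox against gRNA2 carries doxycycline together with the knockout.

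The libraries held 19960644 to 26322847 counts on genes. With 1 library per group there was no replicate check and no p-value was computed, and intervals are exact 95% Clopper-Pearson intervals that cover counting error only. TCOF1 had 49.9 CPM (counts relative to the scaled library total) in CTL and 33.5 in CTL+dox, against 50.6 in gRNA2 and 20.0 in gRNA2+dox, so that it was lowest in the library labelled as its knockout but also lower in CTL+dox than in CTL. Basal keratins marked all libraries, with KRT5 between 3320 and 4187 CPM, whereas the luminal receptor gene ESR1 had 4 to 13 reads. Of the fibroblast and white blood cell markers, LUM, DCN, PTPRC and CD3E had at most 3 reads in any library, COL1A1 had 358 to 543 reads and CD14 had 233 to 280.

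Mitoribosomal protein genes took nearly the same share of the counts in the 4 libraries. The share was 0.319% in CTL (interval 0.317 to 0.322), 0.336% in CTL+dox (0.334 to 0.339), 0.316% in gRNA2 (0.314 to 0.318) and 0.328% in gRNA2+dox (0.325 to 0.330). Both libraries with doxycycline thus lay above both without it, by more than the counting error. In bulk RNA, fewer cells of a type and less RNA per cell cannot be told apart. The reads on large subunit genes were 1.62 times those on small subunit genes in CTL and 1.66 times in CTL+dox, against 1.68 times in gRNA2 and 1.65 times in gRNA2+dox. Across the 77 members, the highest CPM of the 4 libraries exceeded the lowest by a median log2 ratio of 0.25, with a range from 0.05 for MRPS35 to 0.53 for MRPS33. No member reached a log2 ratio of 1 in any comparison. Of all genes tested, 0.105% were higher and 0.263% lower by that limit with an interval past 0.5 in CTL+dox against CTL, 0.355% and 0.362% in gRNA2+dox against gRNA2, 0.184% and 0.460% in gRNA2 against CTL, and 0.520% and 1.16% in gRNA2+dox against CTL+dox.

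**Figure D1:**
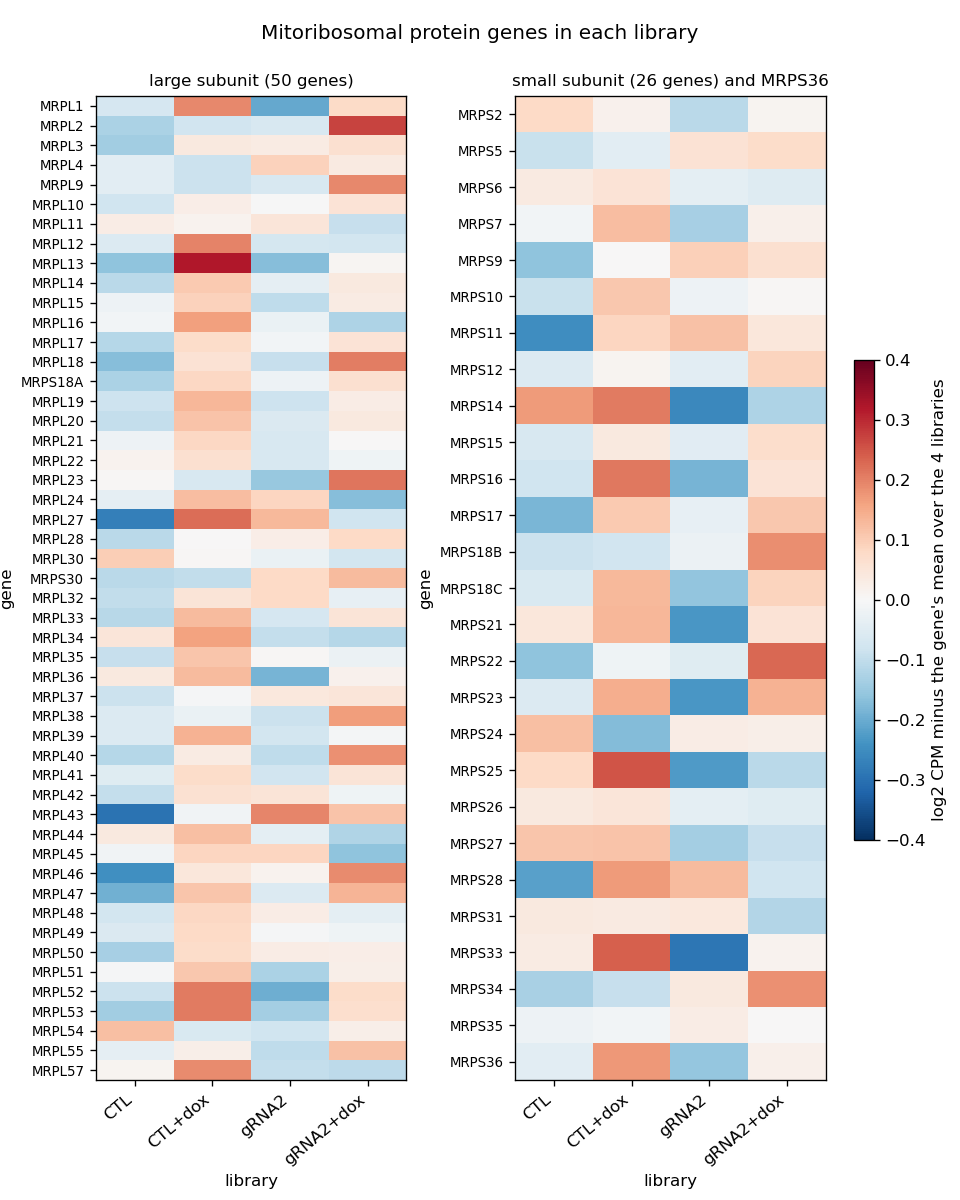
Heat map of the 77 members, with the 4 libraries on the horizontal axis and genes on the vertical axis, the large subunit on the left and the small subunit with MRPS36 on the right. Colour gives log2 CPM minus the mean of the gene over the 4 libraries, from blue (lower) to red (higher). CTL+dox holds the highest value of 43 genes, and CTL the lowest of 36.

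The order of the libraries was uneven among the members. CTL+dox held the highest level of 43 members, gRNA2+dox of 21, gRNA2 of 9 and CTL of 4, where over all genes tested the shares were 29.5%, 23.8%, 28.2% and 18.5% in that order. The lowest level fell in CTL for 36 members, in gRNA2 for 26, in gRNA2+dox for 12 and in CTL+dox for 3, where over all genes tested it did so in 23.4%, 21.0%, 26.3% and 29.3%. The 2 libraries without doxycycline were thus the lowest for most members. CTL+dox was also the highest library for 81.0% of cytosolic ribosomal protein genes and 84.0% of nuclear-encoded respiratory chain genes, beside 55.8% of the members. The lead of CTL+dox was therefore not particular to the members. The gRNA2+dox library was the highest for 1.27% and 6.67% of those 2 lists, beside 27.3% of the members.

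Levels of different genes were compared per transcript length, as CPM per kilobase of transcript. The median over members was 16.7 in CTL and 18.3 in CTL+dox, against 16.7 in gRNA2 and 17.0 in gRNA2+dox. MRPS6, a small subunit protein with a bacterial homologue, had the highest level, at 360 in CTL and 365 in CTL+dox, against 342 in gRNA2 and 338 in gRNA2+dox. All 4 values lay above those of the next gene, MRPL4 of the large subunit, which had 189, 184, 208 and 200 in the same order.

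MRPS15, also of the small subunit, ranged from 156 to 171 over the libraries and MRPL49, a mitochondria-specific protein of the large subunit, from 144 to 158, so these neighbours in the order overlapped. MRPL37 followed with 93.6 to 103. At the other end, MRPL42 had 1.44 to 1.61, MRPS33 1.33 to 1.92 and MRPS25 1.39 to 1.94, and these 3 overlapped as well. Above them came MRPS23 with 2.31 to 3.01 and MRPS31 with 2.96 to 3.31. The low place of MRPL42 rests on the reference transcript used for its length, which is 15557 bases long, as the gene had 458 to 647 reads. MRPS23, MRPS25 and MRPS33 also have long reference transcripts, of 5609, 4572 and 4210 bases, where the median of the members is 1260. Their low places depend on these lengths as well, and MRPS23 had 300 to 380 reads.

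**Figure D2:**
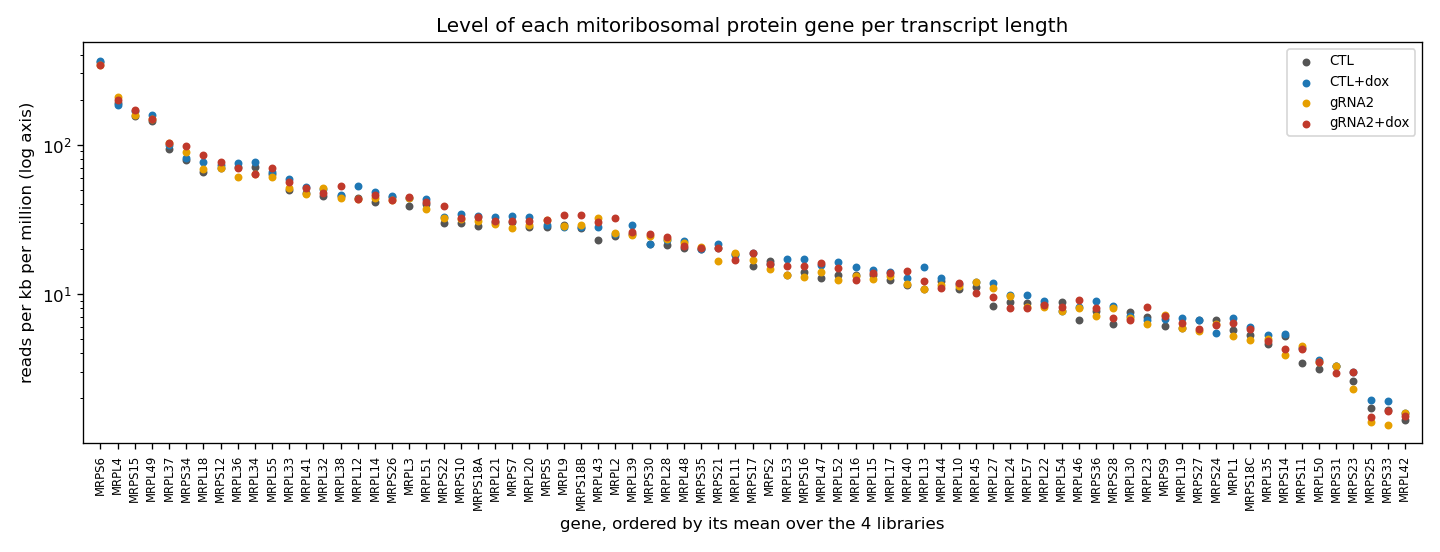
CPM per kilobase of transcript on a log axis for each member, ordered by its mean over the 4 libraries; each point is 1 library. The 4 points of a gene lie close together compared with the distance between MRPS6, at 338 to 365, and MRPL42, at 1.44 to 1.61.

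Promoters were read from the RefSeq windows that run from 250 bases before to 50 bases after a gene's start, in build GRCh38.p14, and 68 members had such a window. The letters CCGGAAG, the core bound by ETS factors such as GABPA, occurred on either strand in 28 of the 68 windows, or 41.2%, beside 17.5% of the 11133 tested genes with a window. The YY1 letters AANATGGCG, where N is any base, occurred in 26.5% of the members and 6.31% of tested genes. The NRF1 letters GCGCANGCG occurred in 19.1% and 13.6%, and the Sp1 letters GGGCGG in 60.3% and 67.3%. Among all 27305 windows of the table, the 4 shares were 10.7% for ETS, 3.37% for YY1, 8.05% for NRF1 and 44.6% for Sp1. A match describes letters and not binding. In CTL+dox against CTL the median log2 ratio was 0.18 for the 28 members with ETS letters and 0.12 for the 40 without, and 25 and 35 of them were above 0. The same medians were 0.16 with and 0.14 without NRF1 letters, 0.12 and 0.15 for YY1, and 0.12 and 0.17 for Sp1, so that the sign of the gap differed among the motifs.

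The 150 bases before the start are printed for 7 members on which the comparisons turn, each 5′ to 3′ on the strand of the gene, with matches to the ETS, YY1 or NRF1 letters in capitals. MRPL52, which was higher with doxycycline in both cell pools, carried the YY1 letters more than once. MRPS22 and MRPS34, high in gRNA2+dox, carried ETS letters more than once, and MRPL43, which differed between the pools, carried them once. MRPL27, highest in CTL+dox and not printed, also carried ETS letters more than once. MRPL9, MRPL18 and MRPS18B, highest in gRNA2+dox, had no ETS letters in their windows. A link between the number of matches and the levels was not tested. MRPL12 had no match in the whole window, and MRPS11 and MRPL46 are shown because they face each other.
MRPL52, GRCh38.p14 chr14:22829737-22829886, plus strand: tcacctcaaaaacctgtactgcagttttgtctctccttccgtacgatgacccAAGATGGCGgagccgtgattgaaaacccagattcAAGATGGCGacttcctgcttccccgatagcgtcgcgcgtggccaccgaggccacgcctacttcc
MRPS22, GRCh38.p14 chr3:139343844-139343993, plus strand: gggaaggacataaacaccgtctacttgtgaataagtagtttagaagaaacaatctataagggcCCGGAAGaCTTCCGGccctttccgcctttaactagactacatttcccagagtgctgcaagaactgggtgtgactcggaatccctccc
MRPS34, GRCh38.p14 chr16:1773135-1773284, minus strand: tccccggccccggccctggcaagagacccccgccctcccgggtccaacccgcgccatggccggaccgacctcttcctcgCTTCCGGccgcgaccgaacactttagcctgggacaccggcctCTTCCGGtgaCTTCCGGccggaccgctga
MRPL43, GRCh38.p14 chr10:100987498-100987647, minus strand: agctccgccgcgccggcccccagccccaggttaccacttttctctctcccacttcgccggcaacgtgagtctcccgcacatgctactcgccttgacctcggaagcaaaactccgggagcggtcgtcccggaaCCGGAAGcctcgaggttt
MRPL12, GRCh38.p14 chr17:81703217-81703366, plus strand: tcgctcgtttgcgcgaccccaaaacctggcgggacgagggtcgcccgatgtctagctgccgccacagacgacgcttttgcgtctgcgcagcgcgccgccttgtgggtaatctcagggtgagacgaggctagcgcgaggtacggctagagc
MRPS11, GRCh38.p14 chr15:88467558-88467707, plus strand: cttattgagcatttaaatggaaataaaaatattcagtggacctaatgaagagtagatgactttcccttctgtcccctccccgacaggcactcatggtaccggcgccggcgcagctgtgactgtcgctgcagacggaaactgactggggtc
MRPL46, GRCh38.p14 chr15:88467389-88467538, minus strand: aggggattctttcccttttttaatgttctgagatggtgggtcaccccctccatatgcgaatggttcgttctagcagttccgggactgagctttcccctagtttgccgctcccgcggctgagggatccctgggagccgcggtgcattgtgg

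A start on the opposite strand lay within 1000 bases before the start of 26 of the 68 members, or 38.2%, beside 24.3% of tested genes. In 1 case the partner was another member, as MRPS11 and MRPL46 on chromosome 15 start 320 bases apart. Other partners were FAU, which encodes a cytosolic ribosomal protein fused to a ubiquitin-like one, 49 bases from MRPL49, SARS2, the mitochondrial seryl-tRNA synthetase, 181 bases from MRPS12, and TCP1, a subunit of the cytosolic chaperonin, 210 bases from MRPL18. In all, 76 members were placed on 21 chromosomes.

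Doxycycline in CTL cells was first examined, since this comparison holds no TCOF1 guide. In CTL+dox against CTL, 68 of 77 members had a log2 ratio above 0, against 52.3% of all genes tested. The median log2 ratio was 0.14, with a range from -0.29 to 0.49, and the median over all genes was 0.01. The log2 ratio of the summed reads was 0.10 (interval 0.09 to 0.12). A gene was called higher or lower where its log2 ratio was at least 0.25 in size and its interval lay on 1 side of 0. By that rule 11 members were higher, where 5.46% of all genes were, and 0 were lower, where 6.02% were. The 11 were MRPL12, MRPL13, MRPL27, MRPL43, MRPL47, MRPL52, MRPL53, MRPS11, MRPS16, MRPS17 and MRPS28. They were 7 of 50 large and 4 of 26 small subunit genes. By the interval alone 27 members were higher, beside 16.6% of all genes, and 0 lower, beside 14.3%.

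Of the large subunit, MRPL27, whose bacterial homologue reaches into the peptidyl transferase centre, had 5.73 CPM in CTL and 8.08 in CTL+dox, against 7.56 in gRNA2 and 6.55 in gRNA2+dox. In CTL+dox against CTL the log2 ratio was 0.49 (0.15 to 0.84). The value in CTL was the lowest of the 4. MRPL13 had 13.6, 19.0, 13.5 and 15.3 CPM in the same order, so that CTL+dox stood above the other three libraries, with a log2 ratio of 0.48 (0.26 to 0.70). MRPL12, a protein of the stalk that recruits translation factors, had 44.5, 52.9, 43.9 and 43.9 CPM. CTL+dox again stood alone, and the log2 ratio was 0.25 (0.13 to 0.38). MRPL53, also placed in the stalk region, had 6.66, 8.48, 6.68 and 7.69 CPM, with both doxycycline libraries above both others. MRPL47, at the exit of the peptide tunnel, had 17.3, 21.3, 19.0 and 21.7 CPM and MRPL52 had 14.9, 18.3, 13.8 and 16.7. These were also higher in both doxycycline libraries than in either other one.

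Of the small subunit, MRPS28 had 5.29 CPM in CTL and 6.93 in CTL+dox, against 6.72 in gRNA2 and 5.81 in gRNA2+dox, on 108 to 175 reads, and its log2 ratio was 0.39 (0.03 to 0.76). MRPS11, a homologue of a bacterial platform protein, had 11.8, 14.9, 15.2 and 14.5 CPM, so that CTL was lower than the other three libraries. MRPL46, the gene that faces it, had 6.61, 8.08, 7.91 and 8.93 CPM, also lowest in CTL, with a log2 ratio of 0.29 (-0.04 to 0.62) that was not called. MRPS16, in which inherited defects cause a disorder of oxidative phosphorylation, had 35.9, 43.9, 33.4 and 39.4 CPM, with a log2 ratio of 0.29 (0.15 to 0.43). MRPS17 had 27.3, 33.3, 30.3 and 33.4 CPM. At the low end of the comparison were MRPS24 with a log2 ratio of -0.29 (-0.74 to 0.15), MRPL54 with -0.18 (-0.58 to 0.22) and MRPL30 with -0.09 (-0.25 to 0.06). These 3 intervals all reached 0, and the first of the genes had only 82 to 109 reads.

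In gRNA2+dox against gRNA2, where doxycycline also induces the guide, the members were again more often above 0, though by less. Of 77 members 51 were above 0, against 45.8% of all genes, and the median log2 ratio was 0.07 where that of all genes was -0.02. The log2 ratio of the summed reads was 0.06 (0.04 to 0.07). By the same rule 9 members were called higher, beside 5.26% of all genes, and 0 lower, beside 7.07%. The 9 were MRPL2, MRPL9, MRPL18, MRPL38, MRPL40, MRPL52, MRPS21, MRPS22 and MRPS23. By the interval alone 19 members were higher, beside 13.6% of all genes, and 2 lower, beside 17.3%. MRPL52 was the 1 gene of the 9 that was also among the 11 genes called higher in CTL+dox against CTL. The share of all genes called higher in both comparisons was not computed. The overlap therefore shows neither a common nor a separate response of the pools.

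MRPL2, a homologue of a protein at the heart of the bacterial large subunit, had 29.7 CPM in CTL and 30.7 in CTL+dox, against 30.9 in gRNA2 and 39.0 in gRNA2+dox. In gRNA2+dox against gRNA2 the log2 ratio was 0.33 (0.19 to 0.47). The gRNA2+dox library stood above the other three. MRPL9 followed the same order, with 35.2, 34.2, 34.7 and 41.4 CPM and a log2 ratio of 0.26 (0.12 to 0.39). Reads of MRPL9 are shared with a gene on the opposite strand, and with these reads kept the log2 ratio was 0.23, which is below the limit for a call. The kept reads can come from either gene, so this value does not settle the call. MRPL18 had 63.6, 74.5, 67.1 and 82.6 CPM and MRPL38, a mitochondria-specific protein, had 61.0, 62.2, 59.7 and 71.2. MRPL40 had 8.57, 9.50, 8.64 and 10.5 CPM. In these 3 genes gRNA2+dox was also the highest library.

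Of the small subunit, MRPS22, another gene of inherited oxidative phosphorylation disease, had 35.8 CPM in CTL and 39.6 in CTL+dox, against 38.7 in gRNA2 and 47.0 in gRNA2+dox, with a log2 ratio of 0.28 (0.15 to 0.41). MRPS23 had 14.7, 16.9, 13.0 and 16.8 CPM and the largest log2 ratio of the comparison, 0.37 (0.16 to 0.59). MRPL23, at the tunnel exit, came next with 4.75, 4.53, 4.26 and 5.49 CPM, but its log2 ratio of 0.36 (-0.02 to 0.75) was not called on 97 to 120 reads. MRPS21 had 22.0, 23.4, 18.2 and 22.2 CPM, so that its ratio came with a low value in gRNA2 rather than a high one in gRNA2+dox. At the low end were MRPL24 with a log2 ratio of -0.25 (-0.56 to 0.05), MRPL45 with -0.25 (-0.45 to -0.04) and MRPS28 with -0.21 (-0.55 to 0.13). The first and second of these lie at the tunnel exit, where MRPL45 anchors the ribosome to the inner membrane.

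**Figure D3:**
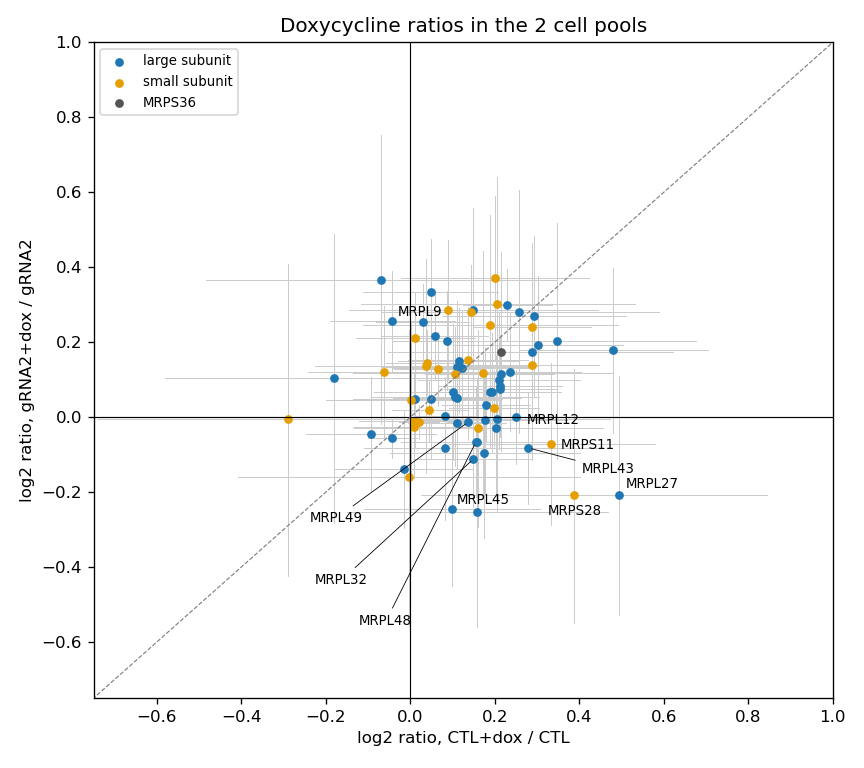
Log2 ratio of each member in CTL+dox against CTL (horizontal axis) and in gRNA2+dox against gRNA2 (vertical axis), coloured by subunit, with grey lines for the 95% counting intervals and a dashed line of equal ratios. Both ratios are above 0 for 47 of the 77 points, and the 10 named genes are those on opposite sides of 0 whose difference exceeded its counting interval.

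The ratios of the 2 pools share no library and were set side by side. Both were above 0 in 47 of 77 members, or 61.0%, against 27.1% of all genes tested, 21 were above 0 in CTL cells alone, 4 in gRNA2 cells alone, and 5 in neither. Taken singly, the CTL and gRNA2 ratios were above 0 in 88.3% and 66.2% of the members. They were so in 93.3% and 68.0% of respiratory chain genes and in 91.1% and 53.2% of cytosolic ribosomal protein genes. The joint count was not taken for those lists. Across the 77 members, which are not replicates, Pearson's correlation of the 2 ratios was 0.01 and Spearman's 0.09, and over all genes tested these were 0.02 and 0.11, so that the low values were not particular to the members. The ratio in gRNA2 cells minus that in CTL cells had a median of -0.05, and 48 members were below 0, where 54.1% of all genes were. Its counting interval lay below 0 in 11 members, beside 15.3% of all genes, and above 0 in 4, beside 11.6%. Ratios on opposite sides of 0 whose difference also exceeded its interval were found in 10 members, 9 lower in gRNA2 cells, beside 11.5% of all genes, and 1 higher, beside 7.58%. By these counts the members were near the background or below it. The median was -0.11 over large subunit genes and 0.01 over small subunit genes.

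Of the 11 members whose interval lay below 0, the 4 with the largest differences were genes already named. For MRPL27 the ratio in gRNA2 cells was lower by a log2 difference of -0.70 (counting standard error 0.23), for MRPS28 by -0.60 (0.25), for MRPS11 by -0.40 (0.16) and for MRPL43 by -0.36 (0.12). In each of these 4 CTL was the lowest library, and gRNA2 lay above gRNA2+dox. MRPL24 had -0.41 (0.21), but its interval reached 0. The 4 members whose interval lay above 0 were MRPL9 with 0.30 (0.10), MRPL2 with 0.29 (0.11), MRPL38 with 0.22 (0.08) and MRPS18B with 0.20 (0.09). MRPL23 with 0.43 (0.28), MRPL54 with 0.28 and MRPS24 with 0.28 had higher values than some of these, with intervals that reached 0.

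The 2 cell pools without doxycycline differed little in these genes. In gRNA2 against CTL, 41 of 77 members were above 0 where 55.5% of all genes were, and the median log2 ratio was 0.01. Called higher were MRPL27, MRPL43 and MRPS11, 3 members beside 6.79% of all genes, and called lower were MRPS14 and MRPS21, 2 members beside 6.11%. By the interval alone 11 were higher and 7 lower, beside 19.7% and 11.8% of all genes. With libraries scaled by total counts only, the median was -0.04 and 6 members were called lower, beside 8.54% of all genes. The summed log2 ratio changed from 0.03 to -0.02. MRPL43, a mitochondria-specific protein, had 23.0 CPM in CTL and 27.9 in CTL+dox, against 32.3 in gRNA2 and 30.5 in gRNA2+dox, and its log2 ratio between the pools was 0.49 (0.33 to 0.66). MRPS14 had 11.1, 11.4, 8.25 and 9.07 CPM, with a log2 ratio of -0.43 (-0.71 to -0.15). Next lowest were MRPS33 with -0.32 (-0.66 to 0.02) and MRPS25 with -0.31 (-0.63 to 0.01), neither called. Both gRNA2 libraries of MRPS14 lay below both CTL libraries, and those of MRPL43 above. Reads of MRPL43 are shared with a gene on the opposite strand. With them kept, its log2 ratio was 0.43 in this comparison and 0.20 in CTL+dox against CTL, the second of which is below the limit for a call. As the kept reads can come from either gene, these values do not settle the calls. On the unstranded counts MRPL27, MRPL43 and MRPS11 were also called higher in CTL+dox against CTL. Both comparisons divide by the same CTL library, the lowest of the 4 for these genes, so the 2 sets of calls are not separate evidence. MRPS21 was called lower here and higher in gRNA2+dox against gRNA2, and these 2 comparisons share the gRNA2 library.

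In gRNA2+dox against CTL+dox, both pools had received doxycycline and 1 was labelled as the knockout. Of 77 members 27 were above 0, where 50.2% of all genes were, and the median log2 ratio was -0.08. With ratios centred within bins of transcript length and GC content the median was 0.002 and 39 of 77 were above 0, beside 6934 of 13810 genes, so that this shift was no longer seen. The log2 ratio of the summed reads was -0.01 (-0.03 to 0.004). Called higher were MRPL2, MRPL9, MRPS18B and MRPS34, 4 members beside 10.4% of all genes. Called lower were MRPL12, MRPL13, MRPL16, MRPL34, MRPL57, MRPS14 and MRPS25, 7 members beside 11.0%. By the interval alone 10 were higher and 13 lower, beside 20.8% and 19.4% of all genes.

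MRPS34, a mitochondria-specific protein of the small subunit, had 78.7 CPM in CTL and 80.9 in CTL+dox, against 88.4 in gRNA2 and 97.8 in gRNA2+dox, with a log2 ratio of 0.27 (0.18 to 0.36). Both gRNA2 libraries were above both CTL libraries. MRPL34 had 54.1, 58.4, 48.8 and 48.3 CPM, the reverse order of pools, with -0.27 (-0.39 to -0.16). MRPL16 had 14.5, 16.4, 14.4 and 13.5 CPM and MRPL57 had 19.6, 22.2, 18.2 and 18.1, so that CTL+dox was the highest library of both. MRPS25 had 7.88, 8.88, 6.37 and 6.91 CPM and a log2 ratio of -0.36 (-0.68 to -0.05), which was -0.16 with the reads it shares with a gene on the opposite strand kept. Those reads can come from either gene. MRPL12 and MRPL13, given above, were also highest in CTL+dox. This comparison shares a library with each of the doxycycline comparisons, so its values are not separate evidence.

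**Figure D4:**
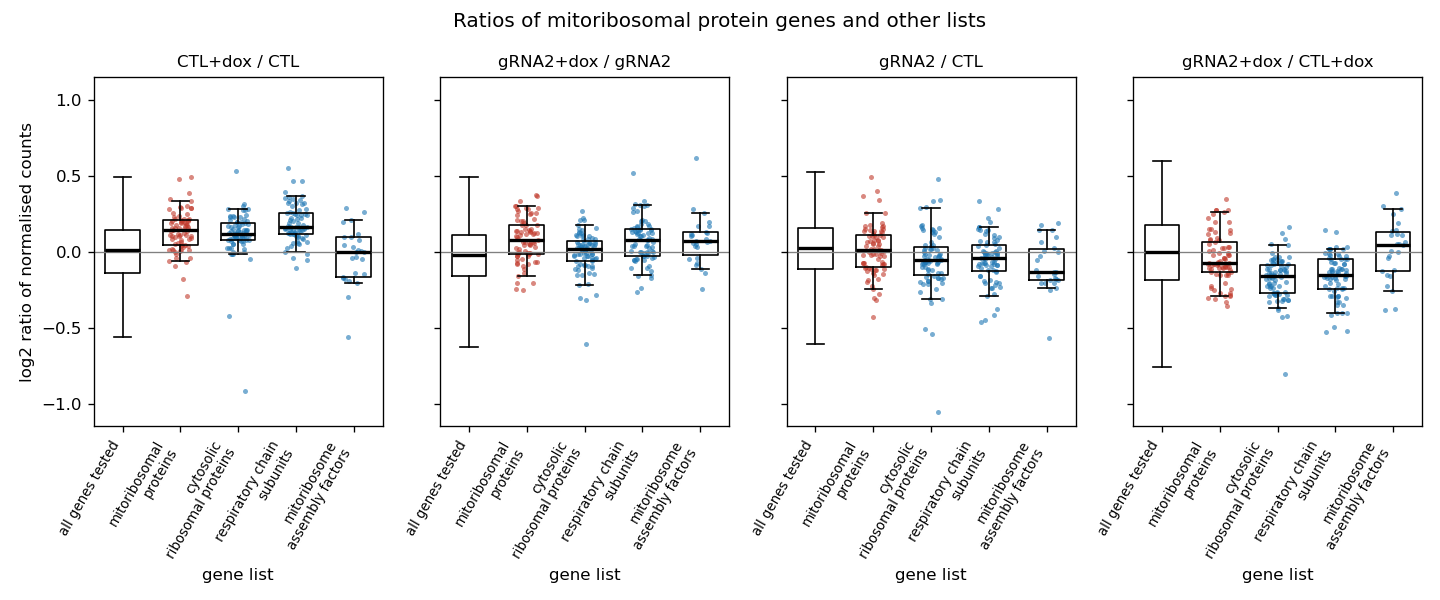
Log2 ratio of normalised counts for all genes tested (box only), mitoribosomal protein genes (red points) and 3 other gene lists (blue points) in the 4 comparisons; boxes span the quartiles, the bold line is the median and whiskers reach from the 5th to the 95th percentile. The mitoribosomal median is 0.14, 0.07, 0.01 and -0.08 from left to right.

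Members with a defined place or name were read as small groups. The 5 stalk genes (MRPL10, MRPL11, MRPL12, MRPL53 and MRPL54) had a median log2 ratio of 0.11 in CTL+dox against CTL, with 3 above 0 and 2 below. MRPL12 and MRPL53 were called higher, 40% of the 5 beside 5.46% of all genes, a share that rests on 2 genes. In gRNA2+dox against gRNA2 the stalk median was 0.05 and 0 were called, beside 5.26% of all genes higher and 7.07% lower. In gRNA2+dox against CTL+dox the stalk median was -0.10. The 7 genes at the tunnel exit (MRPL17, MRPL22, MRPL23, MRPL24, MRPL44, MRPL45 and MRPL47) had medians of 0.10 in CTL+dox against CTL and 0.05 in gRNA2+dox against gRNA2. MRPL47 alone was called, in the first, which is 14.3% of the 7 beside 5.46% of all genes. MRPS12, which sits at the decoding centre, had 66.4, 69.6, 67.1 and 73.4 CPM in CTL, CTL+dox, gRNA2 and gRNA2+dox. The log2 ratio was 0.07 (-0.04 to 0.17) in the CTL pool and 0.13 (0.03 to 0.23) in the gRNA2 pool.

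The 3 paralogues of bacterial protein S18 occupy different places in the particle. MRPS18A, now assigned to the large subunit, had 33.2, 38.5, 35.8 and 38.0 CPM in CTL, CTL+dox, gRNA2 and gRNA2+dox. MRPS18B of the small subunit had 38.9, 39.2, 40.6 and 47.0 CPM and was highest in gRNA2+dox, with a log2 ratio of 0.26 (0.13 to 0.39) against CTL+dox. MRPS18C had 8.18, 9.32, 7.64 and 9.07 CPM, so that both doxycycline libraries were above both others. Reads of MRPS18C on the 2 strands added up to 2.88 times its unstranded count, the largest overlap with a gene on the opposite strand among the members. MRPS30, whose protein also lies in the large subunit despite its name, had 35.5, 35.8, 40.5 and 41.8 CPM, higher in both gRNA2 libraries. MRPS36 had 10.1, 11.8, 9.37 and 10.6 CPM.

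The other genes of the pathway were taken from lists by function. The 6 proteins of the particle under other symbols, among them DAP3, had median log2 ratios of 0.12 in both doxycycline comparisons. CHCHD1 was called lower in gRNA2 against CTL, at 27.8 CPM in CTL and 22.9 in gRNA2. That was 1 of the 6, or 16.7%, beside 6.11% of all genes. The 26 assembly factors tested had medians of 0.0004 in CTL+dox against CTL and 0.07 in gRNA2+dox against gRNA2. In the first comparison 2 were called higher, MTERF3 and WBSCR16, and 2 lower, the GTPases MTG2 and GTPBP6, which is 7.69% each way, near the 5.46% and 6.02% of all genes. In the second 3 were called higher, DDX28, GTPBP6 and RNMTL1, and 0 lower, beside 5.26% and 7.07% of all genes. Between the pools with doxycycline 4 were called higher in gRNA2+dox, RBFA, MTG2, GTPBP6 and MPV17L2, and 3 lower, MTERF3, METTL15 and WBSCR16, beside 10.4% and 11.0%, and in gRNA2 against CTL 0 were called either way. MTG2, which acts late in assembly of the large subunit, had 15.1, 10.3, 13.1 and 12.6 CPM in CTL, CTL+dox, gRNA2 and gRNA2+dox, so that CTL+dox was the lowest library of this gene. Its log2 ratio in CTL+dox against CTL was -0.56 (-0.81 to -0.31).

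The 16 translation factors had medians of 0.07 in both doxycycline comparisons and the 20 mitochondrial tRNA synthetases 0.05 and 0.04. Called in CTL+dox against CTL were GFM2, NARS2 and YARS2 as higher and C12orf65 and GATC as lower. That was 6.25% of the factors each way, beside 5.46% of all genes higher and 6.02% lower. Of the synthetases 10% were higher and 5% lower. Called in gRNA2+dox against gRNA2 were MTFMT and HARS2 as higher, 6.25% and 5% of their lists, and 0 genes as lower. The shares over all genes were 5.26% and 7.07%. In gRNA2 against CTL WARS2 was called lower, 5% of the synthetases beside 6.11% of all genes. Called higher there were 0 genes of these lists, beside 6.79%. In gRNA2+dox against CTL+dox MTRF1L, C12orf65 and GATC were called higher and GFM2, WARS2 and YARS2 lower. The shares were 12.5% and 6.25% of the factors and 5% and 10% of the synthetases, beside 10.4% and 11.0% of all genes. Each share rests on at most 2 genes. GFM2, which recycles mitochondrial ribosomes, had 15.7, 20.3, 16.8 and 15.8 CPM and was called higher in CTL+dox against CTL with 0.38 (0.17 to 0.59). Reads of GFM2 are also shared with the opposite strand, and the 2 strands added up to 2.14 times its unstranded count. Of 11 regulators of mitochondrial gene expression, 2 were called lower and 1 higher in gRNA2 against CTL, beside 6.11% and 6.79% of all genes. The lower ones were ESRRA, a nuclear receptor that drives such genes, at 90.4 CPM in CTL and 61.7 in gRNA2, and TFAM, the packaging protein of mitochondrial DNA, at 33.9 and 26.3. PPARGC1B, a coactivator of the same genes, was the higher one at 3.43 and 5.95 CPM, and it was also the 1 regulator called in CTL+dox against CTL, at 4.71 CPM in CTL+dox. That was 9.09% of the 11 regulators, beside 5.46% of all genes, and the 2 calls of PPARGC1B share the CTL library. PPRC1 was called higher and ESRRA lower in gRNA2+dox against CTL+dox, 9.09% each way beside 10.4% and 11.0% of all genes. In gRNA2+dox against gRNA2 0 regulators were called, beside 5.26% of all genes higher and 7.07% lower. NRF1, GABPA and YY1, whose letters were searched in the promoters, were not called in any comparison.

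Genes of cytosolic ribosomes and of the respiratory chain were set beside the mitoribosomal genes. Cytosolic ribosomal protein genes had a median log2 ratio of 0.12 in CTL+dox against CTL and nuclear-encoded respiratory chain genes 0.16, beside 0.14 for the mitoribosomal genes. Called higher were 7.59% and 26.7% of these 2 lists, beside 14.3% of the mitoribosomal genes and 5.46% of all genes. With ratios centred within bins of transcript length and GC content, the medians were 0.07 and 0.08, beside 0.07. In gRNA2+dox against gRNA2 the medians without centring were 0.02 and 0.08, beside 0.07. In gRNA2+dox against CTL+dox they were -0.16 and -0.15, beside -0.08, and 5 of 79 cytosolic and 9 of 75 respiratory chain genes lay above 0, beside 27 of 77. These differences between lists were not tested.

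Across all genes, ratios varied with transcript length in some comparisons. The median transcript length was 1260 bases for the members and 3199 for all genes with a length. In CTL+dox against CTL the shortest of 10 equal bins of all genes had a median log2 ratio of 0.12 and the longest -0.06, and in gRNA2+dox against CTL+dox these were -0.08 and 0.11. With the ratios centred within bins of length and GC content, the median over members was 0.07 in CTL+dox against CTL with 57 of 77 above 0, beside 7280 of 13810 genes with a length, and 5 were called higher, beside 4.55% of those genes, so that the count of calls was then near the background. It was 0.06 in gRNA2+dox against gRNA2, 0.03 in gRNA2 against CTL and 0.002 in gRNA2+dox against CTL+dox. Among the members themselves the shorter 38 had a median of 0.14 in CTL+dox against CTL and the longer 39 one of 0.16. In gRNA2+dox against gRNA2 these were 0.12 and 0.05. The split lay at the members' median of 1260 bases, so the longer part began well below the median of all genes.

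**Figure D5:**
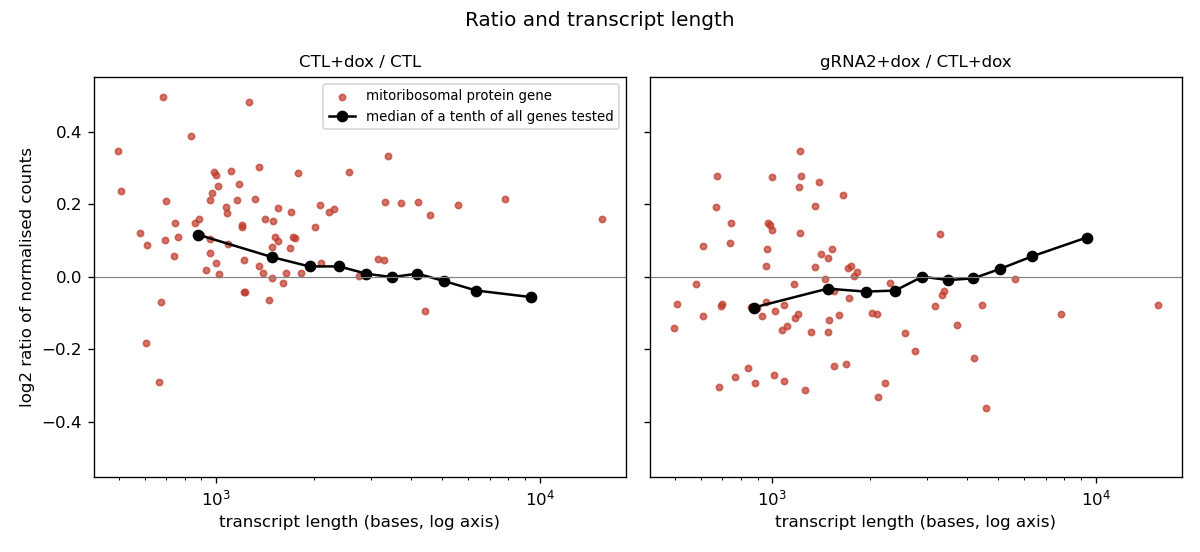
Log2 ratio of each member (red points) against transcript length in bases on a log axis, for CTL+dox against CTL (left) and gRNA2+dox against CTL+dox (right). Black points are medians of 10 equal bins of all genes tested that have a length, which run from 0.12 to -0.06 on the left and from -0.08 to 0.11 on the right.

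Sequence identity sets a limit on some members. RefSeq lists 106 pseudogenes named for 42 members, with 9 for MRPS21, and reads that map to more than 1 place were not counted, 3.39% to 4.85% of all reads in a library. Reads on the 2 strands exceeded the unstranded count by more than 10% in 7 of 77 members, MRPL9, MRPL43, MRPS2, MRPS7, MRPS9, MRPS18C and MRPS25, which is 9.09% beside 10.9% of all genes.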

How the data were processed

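The data are RNA-seq of MDA-MB-468 mammospheres, with a single library of CTL cells and of gRNA2 cells, each without and with doxycycline. The authors extracted total RNA with TRIzol, trimmed adaptors with fastp, aligned with STAR to hg38, as the submitters' processing notes name it, and deposited STAR's read counts per gene, which are not normalised. Versions and annotation are not given in the sources used here. The unstranded column was used, since the 2 strand columns held nearly equal totals. STAR counts only reads that map to 1 place and sets aside those of overlapping genes. Totals of 19960644 to 26322847 counts set the precision.

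Library sizes were scaled by TMM over all genes (edgeR 4.0.16, R 4.3.3). For log2 ratios, 0.5 was added to each count in proportion to library size. Genes were tested if any library held 10 or more counts. Intervals follow the exact method of Clopper and Pearson at 95%, applied to the 2 counts of a gene (Python 3.11.15, scipy 1.17.1), in place of GFOLD, which the authors used. The interval and the call were tested on simulated data that held counting error alone. That test cannot show how the calls behave under variation between cultures. Transcript lengths and GC content came from GENCODE 44 on GRCh37, matched by symbol, and sequences and positions from RefSeq on GRCh38.p14.

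The members and lists were chosen with earlier results of these data known. Genes named are, in each comparison, the 3 highest and the 3 lowest members with at least 100 reads in all libraries together, every member called, the 5 highest and 5 lowest per length, members of the stalk, tunnel exit and decoding centre, the MRPS18 paralogues, MRPS30, MRPS36, TCOF1, and called genes of other lists. MRPL46, MRPS2, MRPS7, MRPS9, MRPS35, DAP3, FAU, SARS2 and TCP1 were named after their values were seen. Alternatives were other scalings, filters, prior counts, thinning, other call rules, and centring by length and GC content.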

Additional observations from a re-analysis of the deposited data

Results flagged for a closer look

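In 10 of the 77 members the doxycycline ratios of the 2 cell pools lay on opposite sides of 0 and their difference exceeded its 95% counting interval, with the ratio lower in gRNA2 cells in 9 of them. Each ratio rests on 1 library per condition, so the difference was not tested against variation between cultures. Expressed as the log2 ratio in gRNA2 cells minus that in CTL cells, the differences were -0.70 for MRPL27, -0.60 for MRPS28, -0.40 for MRPS11, -0.36 for MRPL43 and -0.34 for MRPL45. They were -0.26 for MRPL32, -0.25 for MRPL12, -0.22 for MRPL48 and -0.15 for MRPL49, and MRPL9 had the opposite sign with 0.30. Reads on both strands added up to 1.52 times the unstranded count for MRPL9 and 1.23 times for MRPL43. With the shared reads kept, MRPL9 was no longer called in gRNA2+dox against gRNA2, nor MRPL43 in CTL+dox against CTL. These reads can come from either gene, so the calls are not settled by them. For MRPL12 the ratio in gRNA2 cells was -0.00032, so that it was below 0 by less than its counting error. Over all genes tested, 11.5% met both conditions with the ratio lower in gRNA2 cells and 7.58% with it higher, so that the 9 and 1 of 77 members are near the background or below it.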

How the results depend on the processing

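The median log2 ratio over members was 0.07 to 0.14 in CTL+dox against CTL and 0.06 to 0.09 in gRNA2+dox against gRNA2 over the alternatives run. It lay between -0.04 and 0.03 in gRNA2 against CTL and between -0.10 and 0.002 in gRNA2+dox against CTL+dox. The 46 ratios of named members all stayed within their counting intervals, and none that was called changed its sign. The cause of the changes below was not tested. With total counts only, the log2 ratio of summed reads was 0.073 in CTL+dox against CTL, -0.016 in gRNA2 against CTL, which reversed its direction, and -0.036 in gRNA2+dox against CTL+dox. Members called lower were then 1 in gRNA2+dox against gRNA2 and 6 in gRNA2 against CTL, beside 7.45% and 8.54% of all genes, and in gRNA2+dox against CTL+dox 2 were called higher and 11 lower, beside 8.95% and 12.7%. With DESeq2 size factors, the summed ratio in gRNA2 against CTL was 0.0079 and 5 members were called lower, beside 7.12% of all genes. With libraries thinned to the smallest total it was 0.013 with 4 called lower, beside 6.86%, and 2 were called lower in gRNA2+dox against gRNA2, beside 6.25%. Thinning is a random draw, and over 25 draws with the TMM factors of the full libraries, added after seeing the data, members called lower ranged from 2 to 6 and from 0 to 3 in these comparisons, while 7 to 13 were called higher in CTL+dox against CTL. Shares over all genes were not computed for these draws. In the single thinned set 4.90% of all genes were called higher in CTL+dox against CTL. TMM over the tested genes, chosen after seeing the data, gave summed ratios of 0.075 in gRNA2+dox against gRNA2 and 0.0037 in gRNA2 against CTL, where 6 were called lower, beside 7.39%. Summing the stranded counts was also added after seeing the data. The interval alone called 27 members higher in CTL+dox against CTL, 19 higher and 2 lower in gRNA2+dox against gRNA2, 11 and 7 in gRNA2 against CTL, and 10 and 13 in gRNA2+dox against CTL+dox, and a log2 ratio of at least 1 called 0 in each. Centring by length and GC content left 5 higher in CTL+dox against CTL, beside 4.55% of all genes, 5 higher and 1 lower in gRNA2+dox against gRNA2, beside 5.05% and 7.18%, and 2 lower in gRNA2+dox against CTL+dox, beside 10.5%. Without the 10 genes with the most counts, the share of reads on members was 0.337% in CTL and 0.356% in CTL+dox, against 0.334% in gRNA2 and 0.349% in gRNA2+dox.

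No paired analysis was possible because each group holds 1 library. Leaving out a replicate was not possible for the same reason, and variation between cultures is not in any interval. Depth limits the members with few reads: MRPS24 had 82 to 109 reads, and its interval in CTL+dox against CTL ran from -0.74 to 0.15.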
